A study of Mus musculus with 2 samples.

Results

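Flanking regions are accessible sites near the promoters of protein-coding transcripts but outside them. They lie more than 1 kb and at most 5 kb from the nearest transcription start site (TSS) of such a transcript. None touches an exon of a protein-coding transcript. They were selected on the presence of a DNase-seq peak in both libraries of mouse hippocampus and on distance to the TSSs of GENCODE M21. Of the 58484 regions with a peak in both libraries, 4211 met the rule, which is 7.20%. Of these, 2152 lay upstream of their nearest TSS and 2059 downstream of it, in the direction of transcription, and 0 were equally far from TSSs on both sides. Because peak presence and distance chose them, their number and peak values describe the selection and are not a test of it.

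DNase I cuts DNA where nucleosomes and other proteins leave it exposed, and sequencing of the cut ends maps accessible chromatin. The tissue came from female B6CASTF1/J mice, an F1 cross of C57BL/6J and CAST/EiJ, aged 2 months. There was 1 group, for which no treatment is named, with 2 libraries, labelled biological replicates 1 and 2, so no conditions could be compared and no p-value over samples was possible. Both libraries share a donor record but have separate biosample records, and the tissue is called a layer of hippocampus in one label field and hippocampus in another. Nothing in the labels tells whether 1 mouse or several gave the tissue, and the spread between libraries can therefore be technical.

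The stretch beside a promoter can hold proximal enhancers, insulator sites and start sites of noncoding RNAs. Proximal enhancers bind sequence-specific factors and act on the promoter nearby. A bound factor can shield a few bases from DNase I inside an accessible site, which leaves a footprint.

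The sequences below come mostly from the strongest flanking regions and the strongest footprinted motif matches, and do not stand for a typical flanking region. All are on GRCm38 (mm10), plus strand, 5′ to 3′, from the RefSeq GRCm38.p6 assembly. In the first set, the strongest regions on either side with the strongest region beside Id2, capitals mark bases under footprints of both libraries; regions over 300 bp are shown by their middle. The Tle3 stretch is chr9:61370451-61370750 and the Nr1d1 stretch is chr11:98773881-98774180. Mxi1 is chr19:53314201-53314460 and Id2 is chr12:25098781-25099060. Kpna1 (chr16:35981661-35981840) and Il31ra (chr13:112578161-112578320) are shown because they carried the highest values and much of their sequence recurs elsewhere in the genome.
Tle3: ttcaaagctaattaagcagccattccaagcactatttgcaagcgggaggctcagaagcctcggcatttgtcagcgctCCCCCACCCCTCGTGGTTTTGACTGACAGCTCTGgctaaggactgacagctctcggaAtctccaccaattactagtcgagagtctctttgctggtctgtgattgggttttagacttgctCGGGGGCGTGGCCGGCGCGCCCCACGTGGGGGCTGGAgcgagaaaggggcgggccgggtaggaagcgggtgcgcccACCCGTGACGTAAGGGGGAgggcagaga
Nr1d1: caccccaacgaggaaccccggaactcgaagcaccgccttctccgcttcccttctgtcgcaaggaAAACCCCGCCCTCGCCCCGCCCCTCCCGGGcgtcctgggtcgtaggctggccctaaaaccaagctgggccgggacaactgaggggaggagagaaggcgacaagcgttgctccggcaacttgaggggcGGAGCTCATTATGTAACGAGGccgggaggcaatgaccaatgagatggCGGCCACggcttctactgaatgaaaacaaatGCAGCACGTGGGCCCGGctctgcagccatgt
Mxi1: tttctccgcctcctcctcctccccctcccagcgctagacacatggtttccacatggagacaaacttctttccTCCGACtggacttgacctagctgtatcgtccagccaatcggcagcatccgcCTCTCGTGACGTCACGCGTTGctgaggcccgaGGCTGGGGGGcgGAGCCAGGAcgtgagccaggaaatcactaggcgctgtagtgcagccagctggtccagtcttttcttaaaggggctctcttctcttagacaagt
Id2: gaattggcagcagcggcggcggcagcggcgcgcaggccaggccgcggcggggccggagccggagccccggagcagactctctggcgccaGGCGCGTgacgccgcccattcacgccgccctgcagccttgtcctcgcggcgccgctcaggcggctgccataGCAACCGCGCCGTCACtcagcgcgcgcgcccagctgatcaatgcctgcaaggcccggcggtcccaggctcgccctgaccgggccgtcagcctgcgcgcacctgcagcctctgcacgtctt
Kpna1: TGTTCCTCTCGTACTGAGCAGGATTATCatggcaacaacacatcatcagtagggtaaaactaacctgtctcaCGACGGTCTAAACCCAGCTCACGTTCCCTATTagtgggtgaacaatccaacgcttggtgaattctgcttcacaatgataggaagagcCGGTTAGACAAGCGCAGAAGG
Il31ra: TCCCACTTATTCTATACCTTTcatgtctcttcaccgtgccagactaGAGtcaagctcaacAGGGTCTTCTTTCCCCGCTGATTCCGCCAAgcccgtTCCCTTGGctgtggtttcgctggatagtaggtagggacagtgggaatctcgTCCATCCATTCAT

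In the second set capitals mark a motif match that lay under footprints in both libraries; each is the match in the flanking region with the highest mean value for that motif. They are the CTCF core near Nuak1 (chr10:84438180-84438239), the cAMP response element (CRE) near Tle2 (chr10:81571706-81571765) and the X-box of RFX factors near Caly (chr7:140080953-140081012). The E-box bound by NeuroD factors is upstream of Slc17a7 (chr7:45162280-45162339), and the CArG box of serum response factor (SRF) is near Junb (chr8:84976599-84976658). The AP-1 site is near Fpgs (chr2:32689542-32689601) and the NRF1 site is near Kcnn1 (chr8:70865724-70865783). The letters right after the AP-1 site resemble the CTCF core of the Nuak1 stretch read on the other strand. Which factor left the footprint there was not tested.
Nuak1, CTCF core: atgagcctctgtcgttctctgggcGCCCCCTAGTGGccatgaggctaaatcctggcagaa
Tle2, CRE: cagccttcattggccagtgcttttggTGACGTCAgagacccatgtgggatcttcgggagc
Caly, RFX X-box: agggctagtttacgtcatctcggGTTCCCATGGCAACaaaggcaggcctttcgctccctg
Slc17a7, NeuroD E-box: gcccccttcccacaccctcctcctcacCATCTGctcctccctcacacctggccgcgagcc
Junb, SRF CArG box: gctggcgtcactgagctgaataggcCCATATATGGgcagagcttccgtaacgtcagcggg
Fpgs, AP-1: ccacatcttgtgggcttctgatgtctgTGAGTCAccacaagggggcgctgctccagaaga
Kcnn1, NRF1: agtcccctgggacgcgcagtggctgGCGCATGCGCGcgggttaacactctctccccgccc

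The libraries differed in how much was listed. The longer peak lists held 129779 peaks in replicate 1 and 71895 in replicate 2, and the footprint lists 227153 and 118610 footprints. Read depth is unknown here. Deposited peak values below 1 are whole multiples of a step of 0.00884 in replicate 1 and 0.0103 in replicate 2, so a value of 1 stood for 113 and 96.9 steps. Intervals on shares are 95% Wilson intervals and cover counting error only. Of the flanking regions, 82.8% were also in the shorter list of replicate 1 and 52.0% in that of replicate 2, beside 85.3% and 60.7% of all shared regions.

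Peak values of the flanking regions spread over about the same range in both libraries. The median deposited value was 1.26 in replicate 1, from 0.133 to 14.3, and 1.01 in replicate 2, from 0.175 to 17. Replicate 1 was higher in 2857 of the 4211 regions (67.8%), and the median log2 ratio of replicate 2 to replicate 1 was -0.22, with 90% of the regions between -1.09 and 0.58. Across the 4211 regions, which share both libraries and are not independent replicates, log2 values correlated with Pearson's r = 0.817 and Spearman's rho = 0.786. The same ratio over all 58484 shared regions was -0.24, close to that of the flanking ones.

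**Figure D1:**
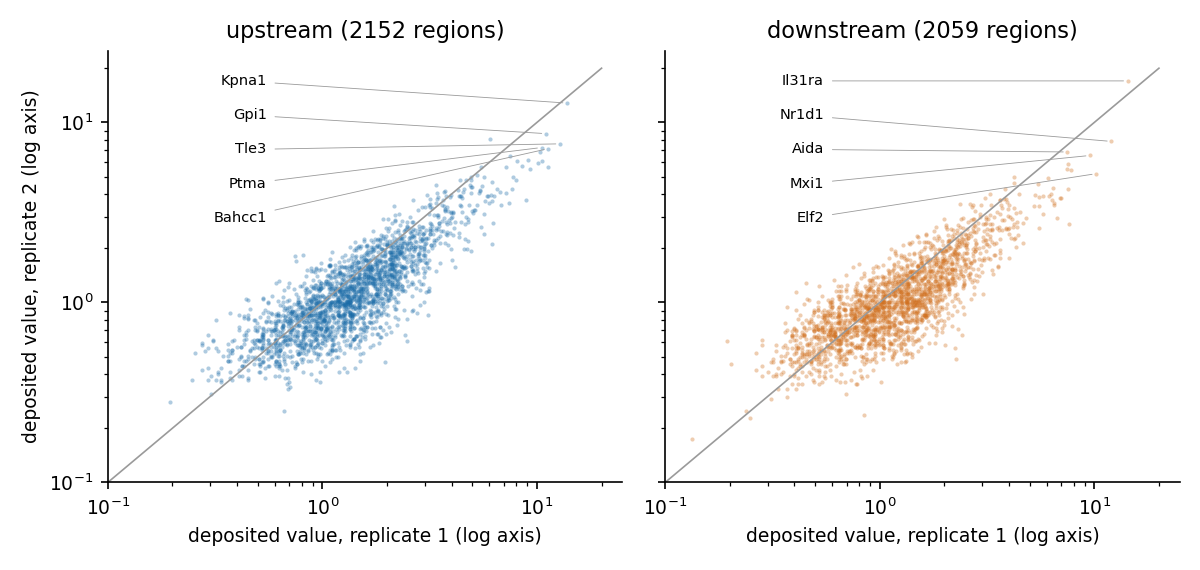
Deposited peak value of each flanking region in replicate 1 (x, log axis) and replicate 2 (y, log axis), upstream and downstream of the nearest TSS; the grey line marks equal values and the 5 strongest regions by mean rank on each side are named. Points follow the line with replicate 1 higher in 67.8% of the regions, and Il31ra and Kpna1 reach the highest values.

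The strongest upstream region was in an intron of Kpna1, which encodes an importin of nuclear transport, 1475 bp from a TSS. Its value was 13.8 in replicate 1 and 12.8 in replicate 2 (13.3 ± 0.667, SD, n = 2). The strongest downstream region, 2342 bp into Il31ra, a cytokine receptor gene, had values of 14.3 and 17 (15.6 ± 1.88, SD, n = 2), the highest of all flanking regions in both libraries. The nearest TSS of Il31ra had no shared promoter region.

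Both sequences recur in the genome. Of the 31-base words of the Il31ra region, 75.4% occurred more than once on the main chromosomes, and 56.0% of those of the Kpna1 region. Such words were rare among flanking regions in general: 91.9% of the 4211 held none that occurs elsewhere, and 29 regions (0.689%) had at least 50%. Those 29 had median values of 0.911 and 0.784, below the medians of all flanking regions, and the Il31ra and Kpna1 regions were the only such regions among the 50 strongest. At least 50% of words in the mitochondrial sequence occurred in 0 flanking regions (upper limit 0.0911%). How reads that match several copies were placed is not stated in the labels. The part of repeated sequence in these values was not tested. Without a full ribosomal DNA reference, it was also not tested whether the repeated sequence of the Il31ra and Kpna1 regions is ribosomal. Whether their values and footprints come from these introns or from other copies of the sequence was not tested.

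The other leading upstream regions had no repeated words and lay beside genes with accessible promoters. Tle3, a corepressor of the Groucho family, had a region 1606 bp upstream with values of 12.8 and 7.60 (10.2 ± 3.70, SD, n = 2) and 7 and 6 footprints. The region 3705 bp upstream of Gpi1, a glycolytic enzyme gene, had 11.0 and 8.66 (9.84 ± 1.67, SD, n = 2). Bahcc1 (11.3 and 7.15, 1187 bp) and Ptma, which encodes prothymosin alpha (10.5 and 7.25, 1206 bp), followed. Replicate 1 was higher in each of these 4.

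Downstream, the leading regions after Il31ra lay in introns of their genes. Nr1d1 encodes the clock repressor REV-ERB alpha, and its region 1133 bp downstream had values of 12 and 7.84 (9.93 ± 2.96, SD, n = 2) with 6 footprints in each library. Mxi1, whose product antagonises MYC through MAX, had 9.55 and 6.55 (8.05 ± 2.12, SD, n = 2) 1135 bp downstream, with a CRE match in the middle of the region. Elf2, an ETS factor gene, had 10.2 and 5.19 (7.70 ± 3.55, SD, n = 2). Aida had 7.49 and 6.85, and 29.1% of its words were repeated.

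Flanking regions thinned out with distance from the TSS, and more steeply downstream. Densities are counts of regions, placed by the edge nearer to the TSS, per Mb of non-exonic sequence at that distance from its nearest TSS. Upstream, the density fell from 29.2 per Mb at 1 to 1.5 kb to 20.3 per Mb at 4.5 to 5 kb. Downstream it fell from 34.9 to 15.2 per Mb. By the middle of the region, in bins of 250 bp, the innermost bin was low, with 17.7 per Mb upstream and 19.3 downstream, since regions that reach within 1 kb of a TSS are not counted. The density at 1250 to 1500 bp was 28.2 per Mb upstream and 33.6 downstream, and at 4750 to 5000 bp it was 21.6 and 15.5. Over the whole genome, promoters and exons included, shared regions had a density of 22.1 per Mb, and the flanking stretch as a whole had 22.5. The genome figure counts 17915 promoter and 2677 exonic regions and the flanking figure none, so they do not compare like with like.

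The fall was seen in each library alone. The ratio of the nearest to the farthest 500 bp was 1.46 upstream and 2.11 downstream in replicate 1, and 1.59 and 2.85 in replicate 2; the means were 1.53 ± 0.0907 and 2.48 ± 0.521 (SD, n = 2). The sides crossed over within the stretch. At 1 to 1.5 kb the downstream density was higher in both libraries, by ratios of 1.38 and 1.43, and at 4.5 to 5 kb it was lower, at 0.954 and 0.798.

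Summed over 1 to 5 kb, which side was denser depended on the libraries. The ratio of downstream to upstream density was 0.960 for regions in both libraries, but 1.06 in each library alone (1.06 ± 0.00232, SD, n = 2). Downstream, the 2059 shared regions stood beside 5092 peaks in replicate 1 and 2719 in replicate 2. Upstream, 2152 shared regions stood beside 4813 and 2578, so a larger part of the upstream peaks was in both.

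**Figure D2:**
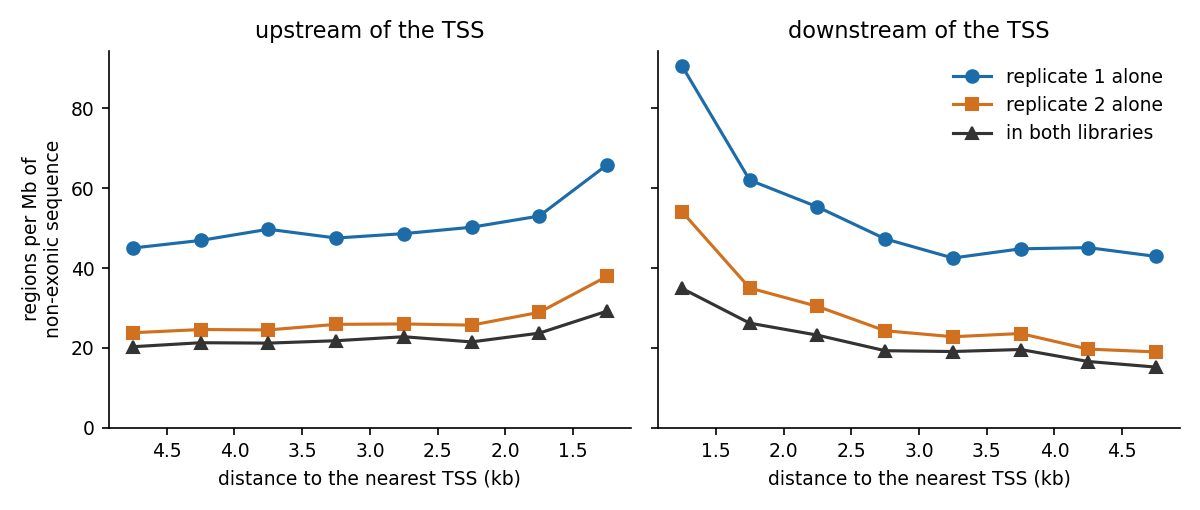
Flanking regions per Mb of non-exonic sequence (y) in 500 bp bins of distance to the nearest TSS in kb (x), upstream and downstream, for peaks of replicate 1 alone, replicate 2 alone and regions in both. The curves fall away from the TSS on both sides and the downstream fall is steeper, from 34.9 to 15.2 per Mb for regions in both libraries.

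Upstream and downstream regions also differed in where they sat and how strong they were. Downstream, 92.4% were inside a coding gene, against 32.5% upstream, where 700 regions lay inside a gene and 1452 outside. Upstream regions had median values of 1.34 and 1.06 and downstream ones of 1.17 and 0.970 in replicates 1 and 2. Promoter regions, those within 1 kb of a TSS, were stronger at 2.06 and 1.85, and intronic regions beyond 5 kb (1.10 and 0.856) and intergenic regions at 5 to 100 kb (1.14 and 0.887) were weaker. The order of these classes was the same in both libraries. Median width was 220 bp for flanking and 280 bp for promoter regions.

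Footprints, which the selection did not use, were present in most flanking regions. Replicate 1 had at least 1 footprint in 91.5% of them and replicate 2 in 81.2% (86.3% ± 7.27, SD, n = 2), and 76.3% had footprints in both, beside 73.8% of all shared regions. Upstream regions had footprints in both libraries more often, at 80.0%, than downstream regions, at 72.4%. Within each library the sides kept that order, with 93.5% against 89.4% in replicate 1 and 83.6% against 78.6% in replicate 2. The gap between sides was smaller than the gap between libraries. Inside a gene, upstream regions stood at 79.3% and downstream ones at 71.8%.

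The share with a footprint followed the peak value. When all shared regions were divided into terciles of value within a library, 75.8% of flanking regions in the lowest tercile of replicate 1 had a footprint, 96.4% in the middle and 99.4% in the highest. In replicate 2 the shares were 55.9%, 86.2% and 97.1%. In the lowest tercile the sides still differed, at 80.5% (76.9 to 83.7) upstream and 72.1% (68.6 to 75.3) downstream in replicate 1, and at 59.6% (55.4 to 63.6) and 52.7% (48.8 to 56.6) in replicate 2, where the intervals overlap. In the upper terciles the intervals of the sides overlapped in both libraries. Promoter regions of the lowest tercile had a footprint less often than flanking ones in replicate 1, at 65.1%. In replicate 2 they stood at 52.5% (50.6 to 54.5) against 55.9% (53.1 to 58.8), where the intervals overlap.

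**Figure D3:**
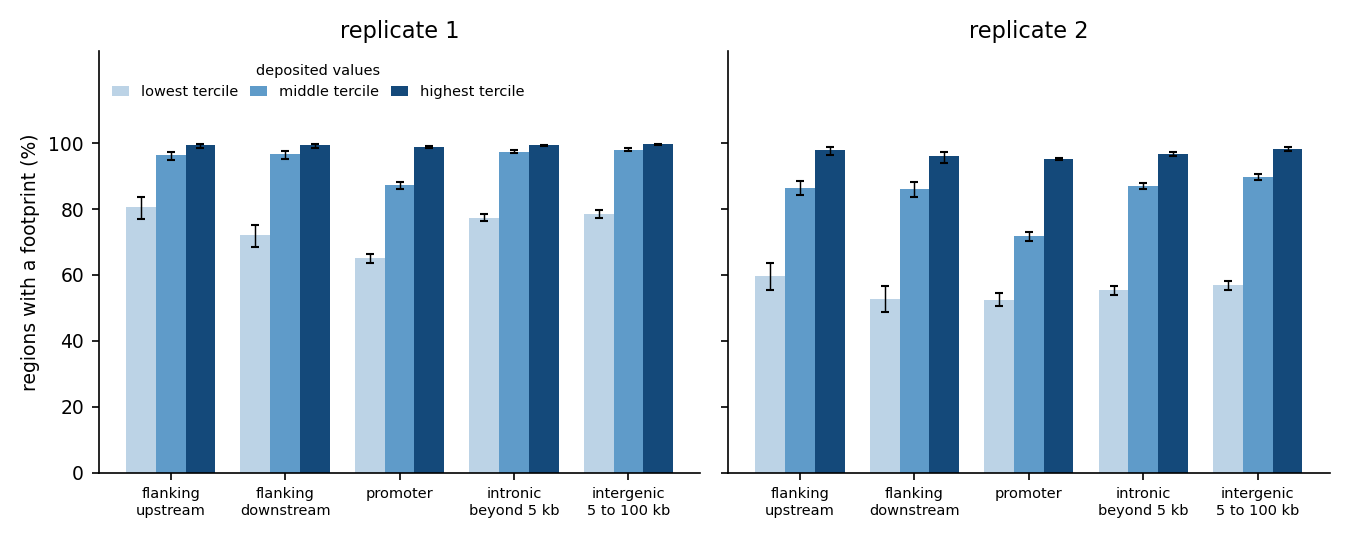
Share of regions with at least 1 footprint (y, %) in terciles of deposited peak value, by class of region and library; error bars are 95% Wilson intervals. The share rises with value in each class, and flanking upstream regions of the lowest tercile stand above downstream ones in both libraries.

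The 3 regions with most footprints, summed over both libraries, lay upstream and were all wider than the median of 220 bp. The 540 bp region 4283 bp upstream of Hook2, a microtubule linker gene, had 10 and 8 footprints with values of 5.41 and 4.21. The 840 bp region 1271 bp upstream of Dusp6, an ERK phosphatase, had 9 and 8. Foxp1, a forkhead factor gene, had 9 and 8 in a region of 740 bp with values of only 1.5 and 1.54. In replicate 1 alone the highest number was 12, in a downstream region of S1pr2, a sphingosine phosphate receptor gene, which had 1 in replicate 2.

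Where values differed most between libraries, among regions with a mean of at least 1, each of the 6 regions named had fewer footprints in the library with the lower value. The Zbtb46 region had values of 2.26 and 0.485, a log2 ratio of -2.22, with 3 footprints in replicate 1 and 0 in replicate 2. Tnn (1.95 and 0.464, -2.07) and Trit1 (2.49 and 0.609, -2.03) had the next lowest log2 ratios. In the other direction, Asic4 had values of 0.743 and 1.81 (a log2 ratio of 1.28), Klc3 0.752 and 1.69 (1.17) and M6pr 0.814 and 1.83 (1.17). The upstream Klc3 and M6pr regions each held a CTCF core match.

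The promoter next to a flanking region was accessible little more often than promoters at large, and only regions at 1 to 2 kb lay above that share. A shared region lay within 1 kb of the nearest TSS for 2392 of the 4211 (56.8%, 55.3 to 58.3), beside 54.8% of all 54327 coding TSSs. By distance the share was 67.7% at 1 to 2 kb, 51.8% at 2 to 3 kb, 49.6% at 3 to 4 kb and 51.7% at 4 to 5 kb. It was 54.2% for intronic regions beyond 5 kb, 58.2% for intergenic regions at 5 to 100 kb and 61.8% for regions beyond 100 kb. Counted once per TSS, the share was 55.5% of 3667. Counted by gene, where any of its TSSs could serve, 73.6% of the 3334 genes with a flanking region had an accessible promoter, against 56.0% of the 18495 genes without one. Genes with an accessible promoter had a flanking region in 19.2% of cases and the others in 9.74%. Downstream regions had an accessible promoter slightly more often (59.6%) than upstream ones (54.1%), and upstream regions inside a gene least often (33.0%).

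Bases beside a flanking region were listed as accessible more often on the side of an accessible promoter. The authors' base lists give the bases whose cut rate passed an FDR of 0.05. In the 500 bp next to a flanking region, 17.4% of bases toward the TSS and 13.9% away from it were listed in replicate 1, and 12.8% and 8.84% in replicate 2. With an accessible promoter the difference was 6.51 ± 0.794 percentage points (SD, n = 2), and without one 0.00253 ± 0.278. Intronic regions beyond 5 kb had 0.144 ± 0.0524 points.

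For regions near the inner bound that 500 bp window can reach the promoter itself, so regions over 2 kb from the TSS were also taken alone, a choice made after seeing the data. Next to an accessible promoter, the difference was then 3.87 ± 0.742 points downstream, with 15.5% against 12.2% in replicate 1 and 11.8% against 7.44% in replicate 2. Upstream it was 0.162 ± 0.675 points, smaller than the spread between libraries. An unbroken run of listed bases from TSS to flanking region was rare, in 26 regions (0.617%) of replicate 1 and 31 (0.736%) of replicate 2.

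Some flanking regions coincided with start sites of long noncoding RNAs. A GENCODE lncRNA TSS lay within 500 bp of 3.73% of them, below the 5.3% of all shared regions, 4.78% of intergenic and 10.2% of promoter regions. Measured from the middle of the region, 3.04% (2.56 to 3.6) lay within 500 bp of such a TSS, against 0.735% of the sequence on offer, a ratio of 4.14. The ratio was 4.64 upstream and 3.62 downstream. On both sides most of the lncRNAs ran opposite to the coding gene: 69 against 16 on the same strand upstream, and 56 against 16 downstream. The strands of all lncRNA TSSs at these distances were not counted, so whether flanking regions differ from them was not tested. The strongest was the Gpi1 region, which overlaps the TSS of Gm12762 on the same strand. Bahcc1 had 2900052L18Rik on the opposite strand, and Nr2f1, a nuclear receptor gene of cortical patterning, had A830082K12Rik 144 bp from a region with values of 5.03 and 3.12.

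By base composition flanking regions resembled distal sites more than promoters. The median CpG observed over expected in the central 150 bp was 0.296, against 0.795 in promoter regions, 0.242 in intronic and 0.296 in intergenic ones, and 0.375 over all shared regions. Median GC content was 53.3% in flanking and 64.7% in promoter regions. The ratio was highest at 1 to 2 kb (0.353) and was 0.253 at 3 to 4 kb. A subset of 600 regions (14.2%) had a CpG ratio of at least 0.6 with at least 50% GC. These had median values of 1.48 and 1.41, 70.3% of them lay next to an accessible promoter, and 10.3% had an lncRNA TSS within 500 bp.

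Motif matches set the flanking regions apart from promoters. The core motif of CTCF, the insulator protein that anchors chromatin loops, matched in 433 of the 4211 central windows of 150 bp (10.3%, 9.40 to 11.2), against 6.5% of all shared regions. It matched in 1.26% of promoter, 7.93% of intronic and 11.7% of intergenic regions. Windows moved 1 kb farther from the TSS matched in 0.142%, which is 6 windows. Upstream regions held it more often (11.9%, 10.6 to 13.4) than downstream ones (8.55%, 7.42 to 9.83), and the intervals do not overlap.

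CTCF matches were the ones most often under footprints among motifs with over 100 matches. Of 435 matches, at least 50% of the letters lay under footprints in 92.2% (replicate 1) and 80.7% (replicate 2), while footprints covered 16.3% and 10.6% of all window bases. The Nuak1 match printed above lay in a region with values of 7.47 and 5.49. Regions with a CTCF match had median values of 1.44 and 1.2, against 1.24 and 0.991 without one, and footprints in both libraries in 89.4% against 74.8%.

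The NeuroD E-box and the AP-1 site had about the same share as in accessible regions at large. The NeuroD E-box (CAGATG or its reverse complement CATCTG) matched in 20% of flanking regions (18.8 to 21.3), beside 20.8% of all shared regions. The share was 12.2% in moved windows, 6.42% in promoter, 24% in intergenic and 29.5% in intronic regions. Its 953 matches lay under footprints in 40.3% and 28.0%. The E-box of the Slc17a7 region is one of these. AP-1 sites (TGANTCA) matched in 6.70%, beside 6.32% of all shared regions. The share was 4.32% in moved windows, 2.22% in promoter, 7.99% in intergenic and 8.53% in intronic regions. Of 305 matches, 11.1% and 4.26% were under footprints, beside 16.3% and 10.6% of all window bases. This says nothing of whether AP-1 was bound.

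Promoter-type motifs were rarer than in promoters. The GC box (GGGCGGG) matched in 6.32% of flanking and 29.9% of promoter regions, and in 1.61% of moved windows. The EGR motif (GCGNGGGCG) matched in 1.07% and 6.64%, the ETS motif (CCGGAAGT) in 0.404% and 4.33%, and YY1 (AAGATGGCG) in 0.332% and 1.41%. Over all shared regions these were 11.7%, 2.47%, 1.52% and 0.622%. NRF1 matched in 6 flanking regions (0.142%, against 0.451% of all shared regions). Of its 10 matches there, 10 and 8 were under footprints. The region of the Kcnn1 match had values of 10.6 and 6.10. The CRE (TGACGTCA), bound by CREB, matched in 28 regions (0.665%, against 0.976% of all shared regions, 2.41% of promoter regions and 0.0712% of moved windows), and of those 28 matches 75% and 57.1% were under footprints. The Tle2 region, whose CRE is printed above, had values of 11.3 and 5.65. The X-box of RFX factors, known from ciliary genes, matched in 30 (0.712%, beside 0.563% of all shared regions), of which 76.7% and 36.7% were.

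AT-rich motifs were less frequent in flanking regions than in moved windows, and about as frequent as in all shared regions. MEF2 matched in 1.35% of flanking regions and 2.21% of moved windows, the homeodomain core (TAATTA) in 2.30% and 3.94%, and SOX (ACAATGG) in 1.47% and 1.97%. Over all shared regions the shares were 1.18% for MEF2, 2.27% for the homeodomain core and 1.53% for SOX. The CArG box of SRF had nearly equal shares of 0.689% and 0.736%. REST matched in 1 flanking region (0.0237%) and 1 moved window, NFI in 6 (0.142%) and 0, and the steroid receptor element in 12 (0.285%) and 5. All shared regions stood at 0.691% for the CArG box, 0.0205% for REST, 0.0633% for NFI and 0.21% for the steroid receptor element. All motifs were searched on both strands; a CRE or AP-1 site can overlap other motifs, and a match is a description of letters.

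**Figure D4:**
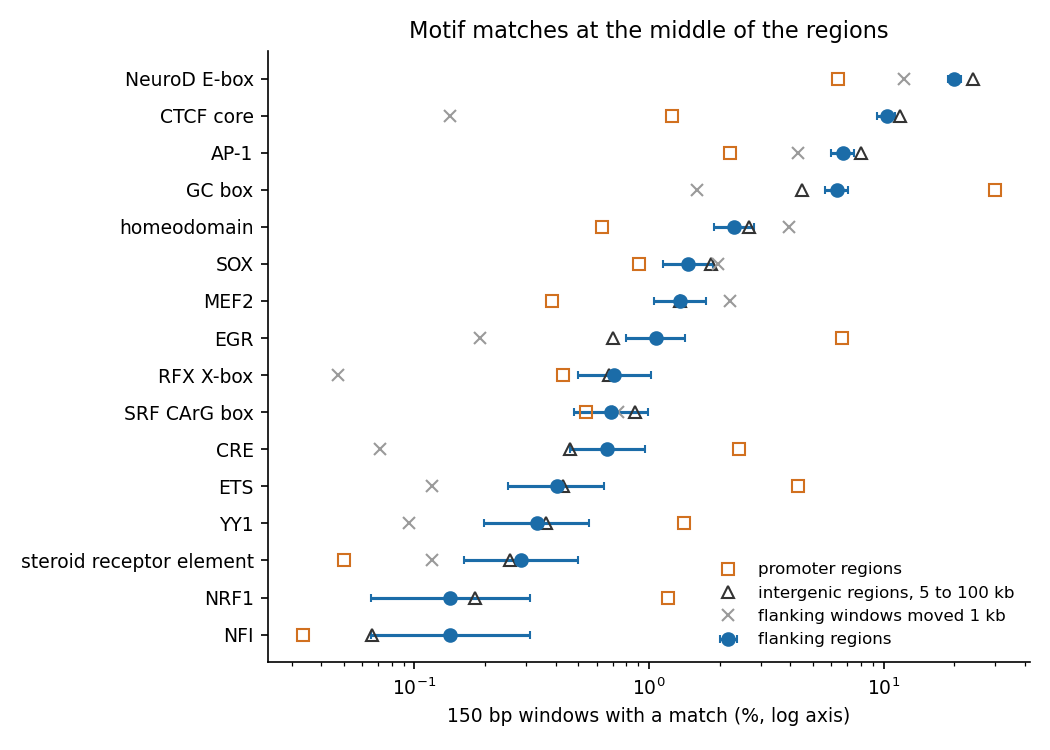
Share of 150 bp windows at the middle of flanking regions with a match to each motif (x, %, log axis), with 95% Wilson intervals; open squares are promoter regions, open triangles intergenic regions at 5 to 100 kb, and crosses flanking windows moved 1 kb away from the TSS (not drawn where 0). The CTCF core has the widest gap to the moved windows, 10.3% against 0.142%, and the GC box, EGR and ETS motifs are far more frequent in promoter regions.

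Genes were taken as the gene of the nearest TSS. Of 21829 coding genes, 3334 (15.3%) had at least 1 flanking region, and 2665 of these had exactly 1. The lists below were chosen with earlier results of these data known, and their shares are read against 15.3% with no test. Among genes of other tissues and of vessel cells, most lists were low: 0 of 14 hepatocyte genes (up to 21.5%), 0 of 12 endothelial and pericyte genes (up to 24.2%) and 19 of 1133 olfactory receptor genes (1.68%) had a flanking region. Of 18 hindbrain and spinal Hox genes, 4 (22.2%) had one, led by Hoxb8 (2.06 and 2.05) and Hoxc8 (1.19 and 1.67), all in genes without an accessible promoter. The intervals of the Hox, hepatocyte, endothelial and pericyte, housekeeping, CA1, CA3 and CA2, GABAergic and oligodendrocyte precursor lists included 15.3%.

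Activity-regulated genes, which neurons switch on within minutes of stimulation, had flanking regions at 16 of 23 (69.6%, 49.1 to 84.4), with 26 regions in all. No other list had a higher share here, but beyond 2 kb the count was 11 of 23, below oligodendrocyte genes at 9 of 15 and glial and stem regulators at 8 of 15. In replicate 1 alone it was 19 of 23, below oligodendrocyte genes at 13 of 15 and pan-neuronal genes at 15 of 18. In replicate 2 alone it was 16 of 23, below glial and stem regulators at 11 of 15. All 23 had an accessible promoter somewhere, and so had all 14 housekeeping genes, of which 3 (21.4%) had a flanking region, among them Ppia, which encodes cyclophilin A (1.47 and 1.67). Junb, a subunit of AP-1, had 3, with values of 6.11 and 4.90 (5.51 ± 0.855, SD, n = 2) at 1938 bp downstream, where the CArG box printed above lies. Its upstream region at 1203 bp had 5.87 and 3.90, and the third 1.23 and 1.19. Ier2, another immediate early gene, had 6.18 and 4.69 at 1109 bp upstream.

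Among other members of that list, Fos, the partner of JUN in AP-1, had a single weak flanking region 1550 bp upstream, with values of 0.946 and 0.825. Npas4, an activity-dependent factor specific to neurons, had a pair upstream with 2.79 and 1.45 at 3825 bp and 2.45 and 1.57 at 2665 bp. Nr4a3, an orphan nuclear receptor gene, had 5.72 and 3.66 at 1533 bp upstream. Per1, a clock gene with a CRE match in its region, had 6.54 and 4.27 at 1648 bp. Bdnf, which encodes a neurotrophin with many promoters, had 2.91 and 1.74 at 1029 bp and 1.61 and 0.671 at 1758 bp, each with a NeuroD E-box match. Replicate 1 was higher in each of the regions just named.

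Neuronal lists were also above the background. Pan-neuronal genes had flanking regions at 10 of 18 (55.6%), forebrain glutamatergic genes at 8 of 18 (44.4%) and synaptic plasticity genes at 9 of 21 (42.9%). Slc17a7, the vesicular glutamate transporter of cortical and hippocampal neurons, had 3, all with an E-box match; the upstream one had 5.28 and 5.12 (5.2 ± 0.114, SD, n = 2) and 6 footprints in each library. Camk2a, a kinase of synaptic plasticity, had 2.38 and 2.42 at 3632 bp downstream. Dlg4, which encodes the postsynaptic scaffold PSD-95, had 8.52 and 5.72 (7.12 ± 1.99, SD, n = 2) at 2160 bp upstream, the highest of any listed gene. Tubb3, neuronal tubulin, had 4.01 and 1.76, and Elavl3, a neuronal RNA-binding protein gene, 2.46 and 1.97.

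Subfield and interneuron markers had lower shares. Dentate granule cell genes had flanking regions at 5 of 12 (41.7%), led by Maml2 (3.71 and 3.28), a Notch coactivator gene, and Pdzd2 (1.49 and 0.722). Prox1, the defining factor of granule cells, had a weak one at 0.699 and 0.949. CA3 and CA2 genes had 4 of 12, led by Pcp4 (2.38 and 2.89) and St18 (2.22 and 1.45), and CA1 genes 0 of 10 (up to 27.8%), although 6 of those 10 had an accessible promoter. In replicate 1 alone 4 CA1 genes had one, and in replicate 2 alone 0. GABAergic genes had 5 of 17 (29.4%), among them Gad1, which encodes a GABA-synthesising enzyme (2.38 and 2.13).

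Glial lists were above the background too. Oligodendrocyte genes had flanking regions at 9 of 15 (60%, 35.7 to 80.2), 8 of them with one upstream and 1 with one downstream. Mbp, the main myelin protein gene, had 2.33 and 1.48 at 4832 bp upstream, and the lineage factor Olig1 had 1.98 and 1.68 at 3492 bp. Astrocyte genes had 5 of 14, with Gfap, the intermediate filament of astrocytes, at 2.04 and 1.03 and Fgfr3 at 1.34 and 1.45. Microglia genes had 6 of 15, led by Spi1, which encodes the myeloid factor PU.1 (2.81 and 2.45), and Sall1 (2.18 and 1.54); only 4 of the 15 had an accessible promoter. Oligodendrocyte precursor genes had 3 of 8, led by Cspg4 (2.06 and 0.980) and Tnr (1.65 and 0.898). Regulators shared by glia and stem cells had 8 of 15 (53.3%), led by Nfic, a nuclear factor I gene (6.80 and 3.49), and Id2. In bulk tissue these counts do not show in which cells a region is open, and fewer cells of a type and weaker accessibility per cell cannot be told apart.

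**Figure D5:**
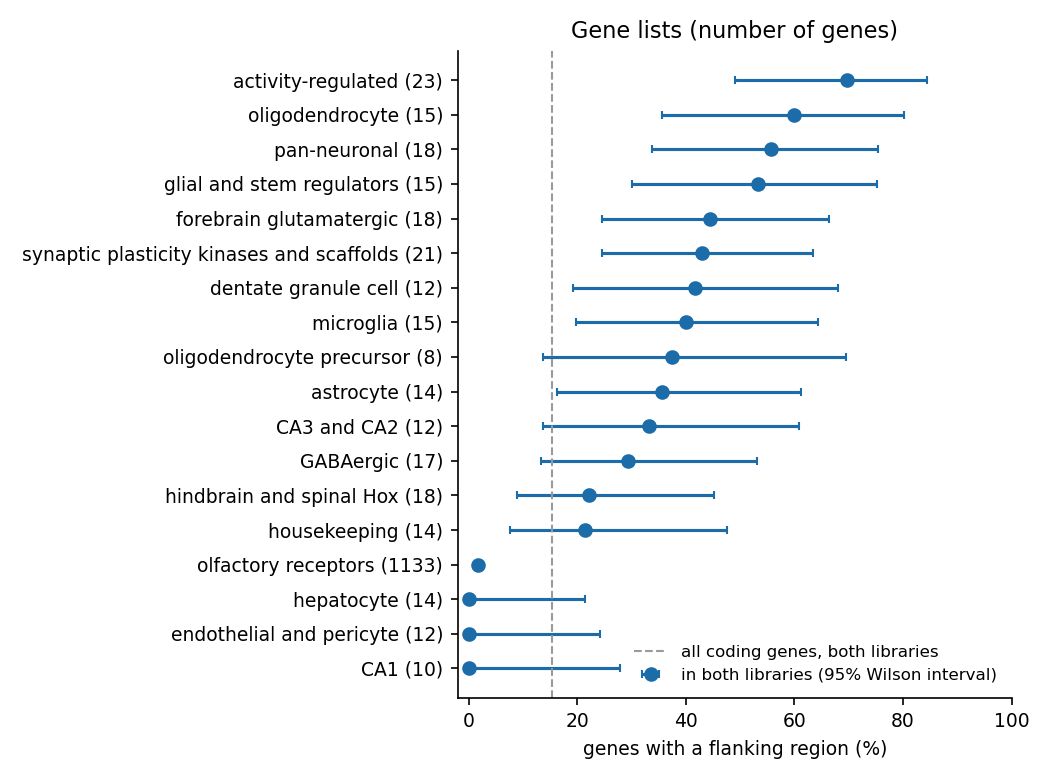
Share of the genes of each list (number of genes in brackets) that have at least 1 flanking region in both libraries (x, %), with 95% Wilson intervals; the dashed line is the share over all coding genes. Activity-regulated genes stand at 69.6%, the line is at 15.3%, and the hepatocyte, endothelial and CA1 lists stand at 0.

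Id2 had the most flanking regions, 6, of which 3 were upstream and 3 downstream. Its product keeps basic helix-loop-helix factors off DNA. The strongest, 1641 bp upstream, had values of 3.17 and 2.52 (2.84 ± 0.458, SD, n = 2) with 6 and 4 footprints, and another 3547 bp downstream had 2.03 and 2.68. The region at 3801 bp upstream had 1.29 and 1.57. The other 3 were weak, from 0.336 to 0.513 in replicate 1 and from 0.433 to 0.547 in replicate 2. In 4 of the 6, replicate 2 was the higher library.

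A further 8 genes had 5 flanking regions each. Igfbp5, an insulin-like growth factor binding protein gene, had 4 downstream of a single TSS, the highest at 4.32 and 3.14 (3.73 ± 0.840, SD, n = 2). Kdm6b, a histone H3 lysine demethylase gene, had 5 around a single TSS, from 1.37 to 3.72 in replicate 1 and from 1.28 to 2.87 in replicate 2. Nrxn2, a presynaptic adhesion gene (up to 2.07 in both libraries), has 8 distinct TSSs. Pde4d, a cAMP phosphodiesterase gene, and Tns1, a tensin gene, have 12 and 11. Dnah2, a ciliary dynein gene with no accessible promoter, had values from 1.14 to 2.25 and from 0.918 to 2.06. Plekha6 had no value above 1.14 in replicate 1. Adgrb1, an adhesion receptor gene, was the first by name of the 35 genes with 4. Genes with many TSSs offer more flanking sequence, and no correction was made for it.

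At the inner bound, Kcnh3 (1.21 and 1.45) and Rtl4 (0.469 and 0.598) lay 1 bp beyond it and were counted. Cd276 at 1000 bp (1.41 and 0.743) and Npr3, 1 bp nearer (0.707 and 0.867), were not. At the outer bound, Cacna1g (2.29 and 1.11) and Fgfr1 (1.68 and 1.06) were at 5000 bp and counted, and Khdc1a (0.681 and 0.825) and Twistnb (1.26 and 0.898) lay 1 bp beyond and were not.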

How the data were processed

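The authors deposited, per library, 2 peak lists, a footprint list and a base list, and the labels name mm10 (GRCm38) as the build. Aligner and callers: not given in the sources used here. The deposited peak value is a signal whose scale is not stated; values below 1 are whole multiples of a step that differs between the libraries (100% within a tolerance of 0.05). The deposited base lists give FDR values (q-values), and only bases under 0.05. The deposited footprint list carries another constant, 0.01, on each line, which was not used. Each deposited list belongs to a single library.

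The longer peak list of each library was merged with the other (1 bp overlap) and regions with a peak in both were kept; all peaks lay within the assembly's chromosome lengths. A region's value is the highest peak value in it per library. Distances run from the nearer edge to TSSs of protein-coding transcripts of GENCODE M21, also for densities, in place of the region middles planned. Sequence was RefSeq GRCm38.p6. Motif windows were 150 bp. A promoter was accessible if a shared region lay within 1 kb of the TSS. The handling of CAST/EiJ alleles is not stated in the labels.

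Members, gene lists (18) and motifs (17) were chosen with earlier results of these data known. Of the listed symbols 1 (Nov) was matched by a RefSeq synonym and 0 were unmatched. Named genes were, by rule, the 5 strongest regions per side by mean rank, the 10 genes with most regions, the 2 genes with the highest values per list, the 3 regions with most footprints and with the most extreme ratios, the regions nearest to the bounds and the best footprinted match per motif. A few genes that the rule names are not reported here. Fos, Npas4, Nr4a3, Per1, Bdnf, Prox1, Nr2f1, S1pr2 and the Id2 sequence were chosen after their values were seen. With 2 libraries of 1 group no test over samples was run. Alternatives were the shorter lists, a reciprocal overlap of 50%, middles, an inner bound of 2 kb, basic transcripts, each library alone and other windows. Procedures were tested on simulated data. Python 3.11.15, NumPy 2.4.6, pandas 2.3.3, SciPy 1.17.1, numba 0.67.0 and matplotlib 3.10.9 were used.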

Additional observations from a re-analysis of the deposited data

How the results depend on the processing

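The number of flanking regions, 4211, was 2098 with the shorter lists, 2754 with an inner bound of 2 kb and 5297 to 9905 in single libraries. The density ratio of downstream to upstream, 0.960, was 0.840 with the shorter lists, 0.912 with a reciprocal overlap of 50%, 0.980 by middles, 0.878 beyond 2 kb, 0.974 with basic transcripts and 1.06 in each library alone, so its side of 1 depends on whether both libraries are required. The median mean value, 1.14, was 1.57 with the shorter lists, 1.24 with the reciprocal overlap and 0.778 to 0.898 in single libraries. The share with footprints in both, 76.3%, was 92.1%, 82.3% and 72.1% to 76.1% (a footprint in that library) under the same 3 choices. The share next to an accessible promoter, 56.8%, was 47.6% with the shorter lists, 49.9% with the reciprocal overlap, 60.4% by middles, 51.1% beyond 2 kb, 63.9% with basic transcripts and 61.7% to 63.1% in single libraries. The share near an lncRNA TSS, 3.73%, was 2.61% in a window of 200 bp and 2.97% to 3.98% in single libraries. The median CpG ratio, 0.296, was 0.329 with the shorter lists and 0.252 to 0.296 in single libraries. The CTCF share, 10.3%, was 13.1% with the shorter lists, 12.1% with the reciprocal overlap, 12.1% beyond 2 kb and 6.33% to 8.23% in single libraries. For the shorter lists, the reciprocal overlap, basic transcripts and single libraries, shares over all coding TSSs and all shared regions are not given here. Whether flanking regions stay above them there was not tested. An inner bound of 2 kb leaves the share of all coding TSSs with an accessible promoter at 54.8%, above the 51.1% of flanking regions. Genes with a region on the lists other than the olfactory receptor list, 95, were 60 with the shorter peak lists and 107 to 148 in single libraries. Shorter lists and single libraries change how many peaks enter; the cause of the other shifts was not tested. The share of activity-regulated genes, 69.6%, was 56.5% beside 8.37% of all genes with the shorter lists, 47.8% beside 10.7% beyond 2 kb, 82.6% beside 29.1% in replicate 1 alone and 69.6% beside 17.6% in replicate 2 alone. The alternatives for motifs other than CTCF were chosen after seeing the data. No paired analysis was possible because there was only 1 group. Read depth is unknown, and the smaller peak list of replicate 2 limits what can be shared.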
